A study of Mus musculus with 6 samples.

Results

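Gdf15, Fgf21, Adm2 and Stc2 encode secreted proteins and were examined as a group of 4 genes, taken by their symbols from the 26191 genes of an embryonic heart RNA-seq table. Whole hearts were compared between control embryos (Mrps5 fl/fl) and mutant embryos (Mrps5 fl/fl; cTNT-Cre), both collected at embryonic day 12 by the labels (the study's text gives a slightly later stage), with 3 libraries in each group. Mrps5 encodes a protein of the small subunit of the mitochondrial ribosome, and all 6 libraries carry floxed Mrps5 alleles. In the mutants the Cre recombinase is driven by the cardiac troponin T promoter, so cells of the heart that are not cardiomyocytes keep the gene. The controls are littermates without Cre, so an effect of the Cre transgene and an effect of the deletion cannot be told apart, and each library was made from a pool of hearts.

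These factors are known as outputs of the integrated stress response, in which phosphorylation of the initiation factor eIF2alpha favours translation of the transcription factor ATF4. When mitochondrial translation or respiration fails, ATF4 raises genes of amino acid supply together with hormone-like proteins that leave the cell. GDF15 is a distant member of the TGF-beta superfamily that acts through the brainstem receptor GFRAL, and FGF21 is an endocrine fibroblast growth factor that needs the co-receptor beta-Klotho. ADM2, also called intermedin, is a vasodilator peptide of the calcitonin gene-related peptide family. STC2 is a glycoprotein of the stanniocalcin family that inhibits the protease PAPP-A, which frees insulin-like growth factors from their binding proteins.

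The promoters are shown because the members are known as targets of this pathway, and ATF4 dimers with C/EBP proteins bind a composite element known as CARE. RefSeq sequences (GRCm38.p6) matched all 4 symbols, and each line gives the 250 bases before a transcription start, 5′ to 3′ on the strand of the gene. The windows are chr7:45615491-45615740 on the minus strand for Fgf21, chr8:70632457-70632706 on the minus strand for the upstream of the 2 listed starts of Gdf15, chr15:89322470-89322719 on the plus strand for Adm2 and chr11:31370062-31370311 on the minus strand for Stc2. Capitals mark matches to CARE (TGATGNAA), the core of the cyclic AMP response element (TGACG), the CCAAT box (CCAAT), the TATA box (TATAAA) and the E box (CACGTG), searched on both strands.
Fgf21 promoter: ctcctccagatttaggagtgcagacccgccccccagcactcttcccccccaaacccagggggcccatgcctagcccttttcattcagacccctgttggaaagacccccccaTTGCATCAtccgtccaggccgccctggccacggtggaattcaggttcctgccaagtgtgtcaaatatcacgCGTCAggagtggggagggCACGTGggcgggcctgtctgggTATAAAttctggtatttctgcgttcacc
Gdf15 promoter: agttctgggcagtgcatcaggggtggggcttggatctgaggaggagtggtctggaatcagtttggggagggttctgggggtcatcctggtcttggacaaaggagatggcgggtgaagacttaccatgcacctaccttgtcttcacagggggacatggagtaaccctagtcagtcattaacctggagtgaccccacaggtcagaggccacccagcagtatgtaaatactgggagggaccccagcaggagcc
Adm2 promoter: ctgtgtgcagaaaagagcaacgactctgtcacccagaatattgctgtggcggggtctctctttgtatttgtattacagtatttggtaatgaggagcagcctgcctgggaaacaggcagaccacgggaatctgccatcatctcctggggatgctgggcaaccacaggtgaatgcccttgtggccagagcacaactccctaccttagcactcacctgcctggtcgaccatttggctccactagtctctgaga
Stc2 promoter: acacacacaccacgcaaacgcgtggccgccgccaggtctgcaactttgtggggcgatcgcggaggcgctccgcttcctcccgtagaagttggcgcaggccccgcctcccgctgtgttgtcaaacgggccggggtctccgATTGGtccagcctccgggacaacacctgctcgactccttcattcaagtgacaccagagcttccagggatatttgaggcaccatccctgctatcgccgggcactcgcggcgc
Fgf21 was the only 1 of the 4 with a CARE match in its window, on the reverse strand from base 139 before the start, and 3.45% of 32851 promoter windows of this length held one. Its window also held the response element core at base 68 (17.8% of windows), the E box at base 50 (6.02%) and the TATA box at base 28 (12.4%), and none of these 4 matches overlap. Stc2 had a CCAAT box at base 111 (33.8%). The windows of Gdf15 and Adm2 shown held none of the 5 motifs, and the window of the second Gdf15 start, not shown, held an E box and a CCAAT box. A match is a description of the letters, and an element farther from the start lies outside these windows.

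Expression is given as FPKM, fragments normalised to transcript length and to library size, summed over the transcripts of each gene, so levels can be compared between genes. The table gives no read counts, but the low FPKM values of genes with a single transcript piled up at multiples of a unit, which was read as the value of 1 fragment. By this reading the libraries held between 16700000 and 27100000 fragments. Between 51.6% and 58.2% of those low values lay within 0.05 fragments of a whole number, where evenly spread values would give 10%, and the unit itself was set at the pile that held the most values. Intervals from these implied fragments cover counting error only.

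The deleted gene was examined as a check of the labels. The controls held 9.65, 11.4 and 10.4 FPKM of Mrps5, mutant replicate 1 held 5.28, mutant replicate 2 held 7.41, and the library labelled mutant replicate 3 held 10.4. The last value lies within the control range, so member values and list counts are given with and without that library. The log2 fold change of Mrps5 was -0.44 (SE 0.19, adjusted p = 0.338 from limma). Leaving out the library labelled mutant replicate 3 gave -0.66 (adjusted p = 0.0682 from limma), and leaving out mutant replicate 1 gave -0.23 (adjusted p = 0.579). All 14 cardiomyocyte markers were measured, and their summed FPKM ranged from 10868 to 12825 in control and from 8758 to 10603 in mutant libraries. Of these markers 8 were lower at an unadjusted p under 0.05 (9.43% of all genes tested were) and 0 passed an adjusted p under 0.05 from limma. With the library labelled mutant replicate 3 left out, 8 were again lower at an unadjusted p (8.89%) and 1, the troponin gene Tnni1, passed adjustment (1.02% of genes tested were lower). In bulk libraries fewer cells of a type and less RNA per cell cannot be told apart.

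In control hearts the members were low. Stc2 was the highest, with 1.69, 1.41 and 2.03 FPKM in replicates 1, 2 and 3. Adm2 followed with 0.432, 0.446 and 0.328 FPKM. Gdf15 stood at 0.0754, 0.268 and 0.0276 FPKM, and Fgf21 was listed at 0 in all 3 controls. The control ranges of Stc2, Adm2 and Gdf15 do not overlap with each other. In mutant hearts Stc2 was again highest in every library, while Gdf15 stood above Adm2 in replicates 1 and 2 and below it in the library labelled mutant replicate 3.

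**Figure D1:**
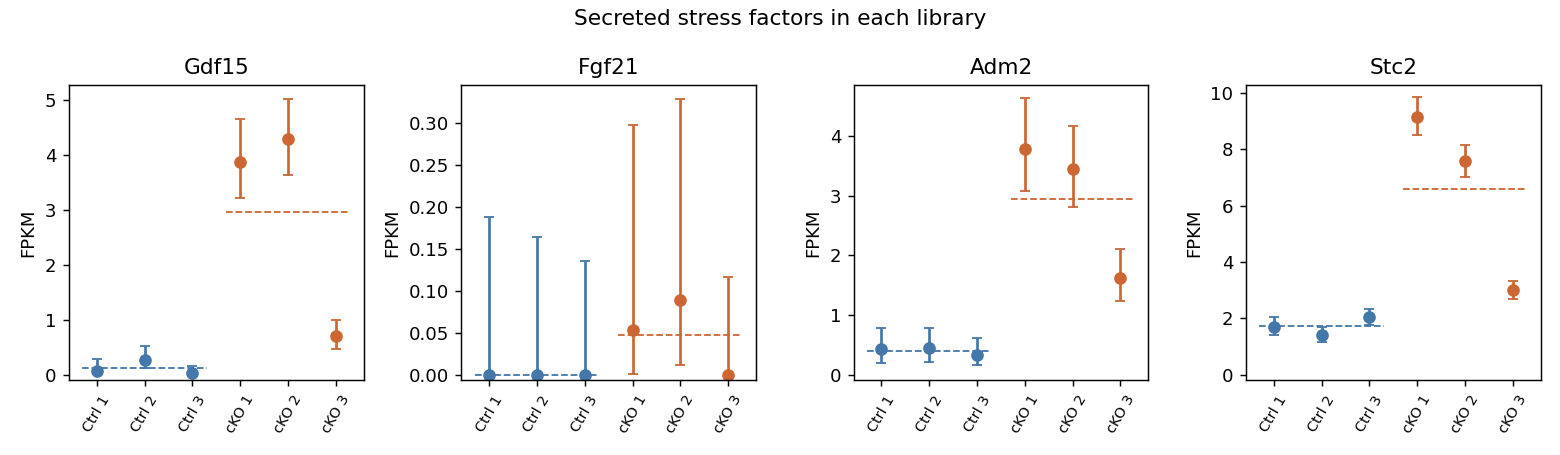
FPKM of Gdf15, Fgf21, Adm2 and Stc2 in each of the 3 control (Ctrl, blue) and 3 mutant (cKO, orange) libraries, with a linear axis of its own for each gene. Points are library values, bars are 95% Poisson intervals of the implied fragments (counting error only; at a value of 0 they end at 3 fragments) and dashed lines are group means. For Gdf15, Adm2 and Stc2 every mutant point lies above every control point, with cKO 3 the lowest mutant point, and all points of Fgf21 lie under 0.1 FPKM.

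Gdf15 (ENSMUSG00000038508) showed the largest ratio between the groups among the members. It reached 3.88, 4.30 and 0.705 FPKM in mutant replicates 1, 2 and 3, a mean of 2.96 ± 1.96 (SD, n = 3) against 0.124 ± 0.127 (SD, n = 3) in controls. Every mutant library was above every control library, and the library labelled mutant replicate 3 was 2.63 times the highest control. Among genes with 1 FPKM or more in 3 or more libraries, which leave out Gdf15, 7.74% were wholly higher. The implied fragments were 2, 8 and 1 in the controls and 118, 153 and 29 in the mutants. The ratio of these counts, scaled by depth, was 23.2 with an exact 95% interval of 12.8 to 46.9. Since 8 of the 11 control fragments came from control replicate 2, the ratio without that library was 57.4 (19.5 to 280.1), and leaving out any other library gave 15.5 (without control replicate 3) to 34.2 (without the library labelled mutant replicate 3). Nearly all of the signal belonged to 1 of its 2 listed transcripts, and the second transcript was at 0.0736 FPKM in mutant replicate 1 and at 0 in all other libraries.

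Only 2 libraries held Gdf15 at 1 FPKM or more, so it missed the filter on low values, which kept genes with 1 FPKM or more in 3 or more libraries and left 13260 genes. A two-sided exact permutation test of the 6 libraries gave p = 0.1 for Gdf15, the smallest p that 3 against 3 libraries allow. With a filter on the mean over all 6 libraries instead (at least 1 FPKM, chosen after the data were seen), its log2 fold change on the log2(FPKM + 1) scale was 1.66 (SE 0.39), with an adjusted p of 0.154 from limma (0.0529% of genes tested were higher past the threshold). Without the library labelled mutant replicate 3 the value was 2.18 (SE 0.16, adjusted p = 0.000562 from limma under that filter). Gdf15 passed this filter through its mutant libraries alone, since its control mean was 0.124 FPKM, so the mutant values decided that it was tested.

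Adm2 (ENSMUSG00000054136) was at 3.78, 3.44 and 1.61 FPKM in mutant replicates 1, 2 and 3. Its mean was 2.95 ± 1.17 (SD, n = 3) in mutant and 0.402 ± 0.0645 (SD, n = 3) in control hearts. The groups did not overlap, where 7.74% of genes tested were wholly higher. The implied fragments numbered 9, 11 and 10 in controls and 97, 103 and 57 in mutants, a ratio of 7.28 scaled by depth (exact 95% interval 4.98 to 11.0). The log2 fold change was 1.44 (SE 0.23), and its adjusted p of 0.0643 from limma did not pass the threshold of 0.05. Adm2 entered this fit through its mutant libraries alone, since every control value was below 1 FPKM. Without the library labelled mutant replicate 3 the log2 fold change was 1.72, but Adm2 then missed the filter and had no test. Under the filter on the mean it had an SE of 0.14 and an adjusted p of 0.000968 from limma. That filter was chosen after the data were seen, and Adm2 passed it through its mutant libraries alone. Of 3 scalings of FPKM between libraries, the same sum in every library put Adm2 past the threshold (1.40, adjusted p = 0.0150 from limma, with 111 genes in either direction in place of 11 and 0.316% of genes tested higher). The same sum without the erythroid marker genes (adjusted p = 0.0745) and the same upper quartile (adjusted p = 0.0786) did not.

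Stc2 (ENSMUSG00000020303), the only member at or above 1 FPKM in all 6 libraries, had 9.15, 7.57 and 2.99 FPKM in the mutants, in replicate order. The mutant mean was 6.57 ± 3.20 (SD, n = 3) and the control mean 1.71 ± 0.312 (SD, n = 3). The lowest mutant value was 1.47 times the highest control value. Between 107 and 187 implied fragments lay behind each control value and between 319 and 710 behind each mutant value. The ratio scaled by depth was 3.60 (exact 95% interval 3.23 to 4.02). That interval covers counting error only and not the spread between libraries. Leaving out 1 library moved the ratio outside it, from 2.94 (without mutant replicate 1) to 4.78 (without the library labelled mutant replicate 3). The log2 fold change was 1.38 (SE 0.31, adjusted p = 0.142 from limma), and 1.79 (SE 0.14, adjusted p = 0.000931 from limma) without the library labelled mutant replicate 3.

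Fgf21 (ENSMUSG00000030827) was not detected above the counting limit in either group. Its FPKM was 0 in all control libraries and in the library labelled mutant replicate 3, 0.0534 in mutant replicate 1 and 0.0892 in mutant replicate 2. These values correspond to 1 and 2 fragments. A count of 0 allows up to 3 fragments, or 0.135 to 0.188 FPKM in the control libraries, so no fold is given and a difference below that level was not detectable at this depth. The exact permutation test over the 6 libraries gave a two-sided p of 0.4.

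Among the 13260 genes tested with limma, 0.0528% were higher and 0.0302% lower in mutant hearts at an adjusted p under 0.05, and 5.57% were higher at an unadjusted p under 0.05. Stc2 was higher at an unadjusted p of 0.00199 from limma, as was Adm2 at 0.000181, whose mutant values decided that it was tested, and neither passed after adjustment. Values of mutant hearts lay wholly above those of control hearts in 7.74% of genes tested. Without the library labelled mutant replicate 3, 0.965% of genes tested were higher at an adjusted p under 0.05.

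Gdf15, Adm2 and Stc2 were each lowest, among the mutants, in the library labelled mutant replicate 3. There the level was 17.2% of the mean of mutant replicates 1 and 2 for Gdf15, 44.6% for Adm2 and 35.8% for Stc2. Relative to the control mean on the log2(FPKM + 1) scale, mutant replicates 1, 2 and 3 lay at 2.12, 2.24 and 0.61 for Gdf15, at 1.77, 1.66 and 0.90 for Adm2 and at 1.91, 1.67 and 0.56 for Stc2. Mrps5 in that library was at the level of control replicate 3. With 6 libraries in 2 groups no correlation with Mrps5 was computed.

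**Figure D2:**
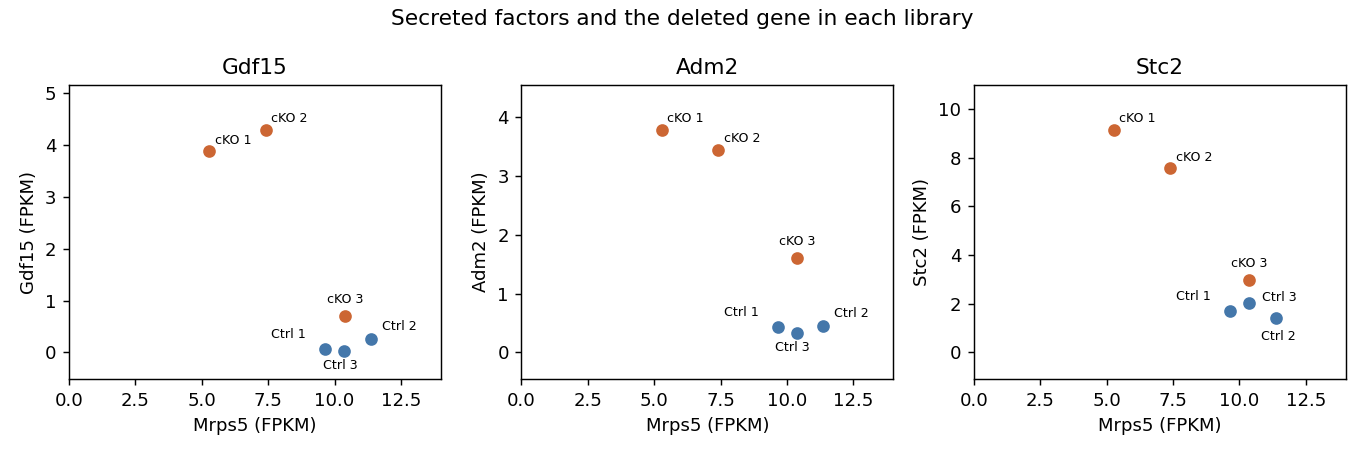
FPKM of Gdf15, Adm2 and Stc2 (vertical axes) against FPKM of Mrps5 (horizontal axis) in the 3 control (blue) and 3 mutant (orange) libraries, 1 point for each library. The points cKO 1 and cKO 2 stand at 5.28 and 7.41 FPKM of Mrps5 with the highest values of each factor, and cKO 3 lies near the controls on the horizontal axis and above them on the vertical axis.

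Blood content differed between the libraries. Erythroid marker genes held a share of all FPKM of 12.3%, 13.3% and 12.0% in the controls, and of 23.5%, 10.8% and 22.0% in the mutants, each in replicate order. All 15 erythroid markers in the table were tested, and in 0 of them was the library labelled mutant replicate 3 the lowest mutant. With all 6 libraries, the only fit counted for them, 14 were higher, with a median log2 fold change of 0.66. Of these 6 were higher at an unadjusted p under 0.05 (5.57% of all genes tested), and 0 passed an adjusted p under 0.05 from limma. Gdf15 was highest in mutant replicate 2, and Adm2 and Stc2 were highest in mutant replicate 1. The part of blood content in these levels was not tested. With the erythroid level as a covariate the log2 fold change was 2.00 for Gdf15, 1.56 for Adm2 (adjusted p = 0.191 from limma) and 1.55 for Stc2 (adjusted p = 0.311). The summed FPKM of 7 hepatocyte markers was 151, 320 and 23.8 in controls and 96.1, 192 and 142 in mutants, and that of 6 macrophage markers was 10.4 to 11.9 in controls and 8.22 to 13.5 in mutants. These ranges overlap between the groups. The summed FPKM of 8 endothelial markers was 208 to 227 in controls and 194 to 227 in mutants, and that of 8 epicardial and fibroblast markers was 360 to 366 and 314 to 409.

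The receptors and partners of these factors held genes below 1 FPKM in every library as well as abundant ones. Of 13 listed genes 7 passed the filter, 0 passed an adjusted p under 0.05 from limma, and 1 was lower and 0 higher at an unadjusted p under 0.05 (9.43% and 5.57% of all genes tested), with a median log2 fold change of -0.07 against -0.02 over all genes tested. Without the library labelled mutant replicate 3, 0 of 7 passed, 1 was lower and 1 higher at an unadjusted p (8.89% and 6.40% of all genes tested), and the median was 0.01. Gfral, the GDF15 receptor, was listed at 0 in every library, and its partner Ret was at 0.0135 to 0.319 FPKM. For FGF21, the co-receptor gene Klb was at 0.0483 to 0.337 FPKM, while the receptor Fgfr1 was at 10.8 ± 1.21 (SD, n = 3) in control and 10.6 ± 1.81 FPKM (SD, n = 3) in mutant hearts. The log2 fold change of Fgfr1 was -0.03 (SE 0.14, adjusted p = 0.944 from limma), and 0.10 (SE 0.11) without that library.

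The ADM2 receptor is a complex of the calcitonin receptor-like receptor, encoded by Calcrl, with a RAMP protein. Calcrl was the most abundant receptor gene of the list, with 24.3 ± 1.83 (SD, n = 3) in control and 22.4 ± 4.64 FPKM (SD, n = 3) in mutant hearts (log2 fold change -0.13, adjusted p = 0.706 from limma, and -0.06 without the library labelled mutant replicate 3). Its partner Ramp2 was at 32.5 ± 3.53 and 29.8 ± 2.41 FPKM (SD, n = 3 each). Ramp1 had 3.98, 3.93 and 3.61 FPKM in controls and 2.87, 3.01 and 3.12 in mutants. The groups of Ramp1 did not overlap, where 13.0% of genes tested were wholly lower, and its log2 fold change of -0.27 (SE 0.10) had an adjusted p of 0.263 from limma. Ramp3 was below 1 FPKM in all libraries. Pappa, which encodes the protease that STC2 inhibits, was at 2.44 ± 0.0795 in control and 2.90 ± 0.587 FPKM (SD, n = 3 each) in mutant hearts (log2 fold change 0.17, adjusted p = 0.596 from limma). With that library set aside both mutant values of Pappa, 3.10 and 3.36 FPKM, lay above every control, at a log2 fold change of 0.30 (SE 0.12, adjusted p = 0.275 from limma).

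**Figure D3:**
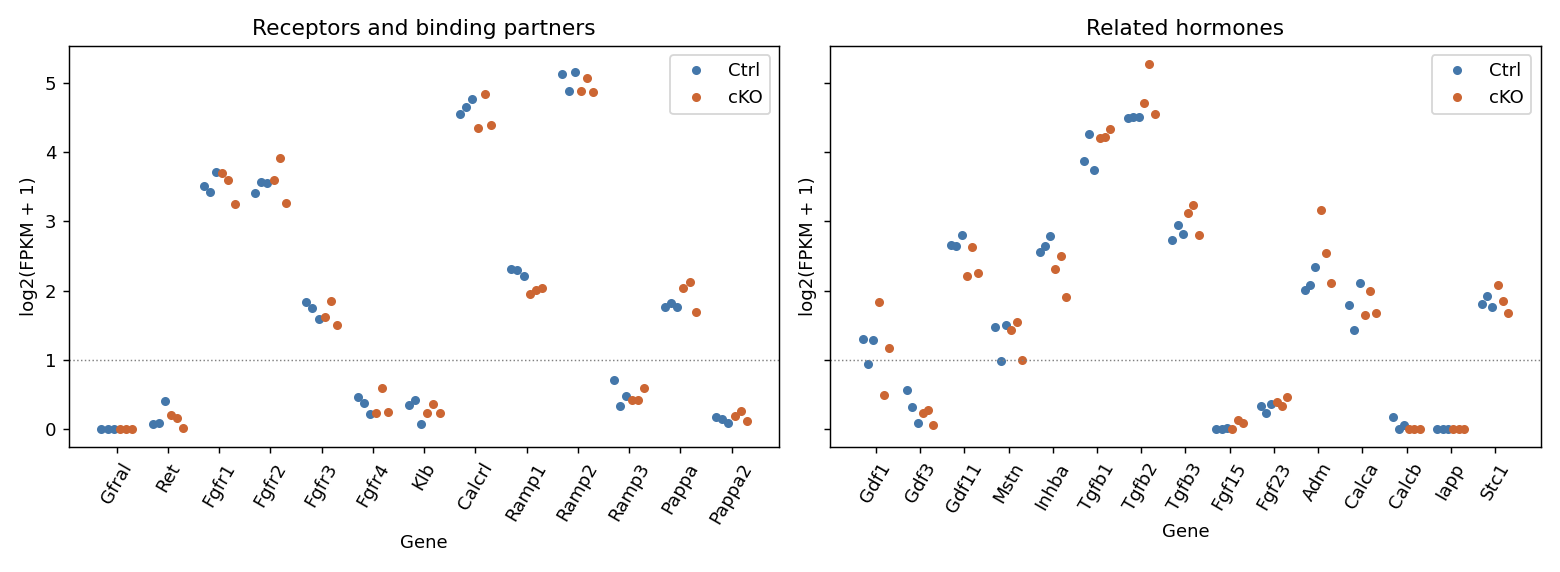
Levels on the log2(FPKM + 1) scale of 13 receptor and partner genes (left) and 15 related hormone genes (right) in 3 control (blue) and 3 mutant (orange) libraries, 1 point for each library. The dotted line marks 1 FPKM. Fgfr1, Fgfr2, Calcrl and Ramp2 lie well above that line in both groups, and Gfral and Klb lie below it.

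The nearest relatives of the members were examined next. Of 15 related hormone genes 10 were tested, 0 passed an adjusted p under 0.05 from limma, and 2 were lower and 0 higher at an unadjusted p under 0.05 (9.43% and 5.57% of all genes tested), with a median log2 fold change of 0.02 against -0.02 over all genes tested. Without the library labelled mutant replicate 3 the count at an unadjusted p was 0 lower and 3 higher (8.89% and 6.40% of all genes tested), with 0 past adjustment and a median of 0.15. The 3 were Adm, Tgfb2 and Tgfb3, the last 2 being TGF-beta genes with log2 fold changes of 0.49 and 0.35 in that fit (adjusted p = 0.180 and 0.190 from limma). Stc1, the paralog of Stc2, was at 2.56 ± 0.206 in control and 2.67 ± 0.521 FPKM (SD, n = 3 each) in mutant hearts, with a log2 fold change of 0.03 (SE 0.13, adjusted p = 0.933 from limma) that was 0.13 (SE 0.13) without that library. Adm, which encodes adrenomedullin, was at 3.02, 3.25 and 4.06 FPKM in controls and at 7.99, 4.84 and 3.31 in mutant replicates 1, 2 and 3. The Adm values overlap between the groups through the library labelled mutant replicate 3 (log2 fold change 0.46, adjusted p = 0.410 from limma). Without it the mutant values lay above the controls, at 0.71 on the log2 scale (SE 0.19, adjusted p = 0.130 from limma). The 2 genes lower at an unadjusted p, Inhba (an activin subunit) and Gdf11, had log2 fold changes of -0.43 and -0.34 with adjusted p of 0.272 and 0.294 from limma, and of -0.26 and -0.29 without that library. Fgf15, the mouse relative of human FGF19, was at 0.0956 FPKM or less.

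The remaining genes of the pathway were described from a list of 30 integrated stress response genes, of which 29 were tested and 3 of those entered through mutant libraries alone. All 29 were higher at an unadjusted p under 0.05 (5.57% of all genes tested were) and 5 passed an adjusted p under 0.05 from limma (0.0528%), with a median log2 fold change of 1.25. With FPKM scaled to the same sum in every library 19 passed (0.316%), and with either of the other scalings 5. Only 2 passed without any 1 of the control libraries, with the erythroid covariate, with replicate number as a block or with no filter. The 5 that passed before these changes were Trib3, Slc7a5, Slc3a2, Mthfd2 and Atf4. The mutant libraries lay wholly above the controls in 27 of the 29, and in 7.74% of all genes tested. The list was written with results of these samples known, so its direction is not independent evidence.

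Atf4, which encodes the central factor of the response, rose from 56.0 ± 3.09 to 131 ± 25.1 FPKM (SD, n = 3 each; log2 fold change 1.19, adjusted p = 0.0311 from limma). Trib3, a pseudokinase gene that feeds back on the response, rose from a mean of 3.44 to 25.7 FPKM (log2 fold change 2.56, adjusted p = 0.00307 from limma). Mthfd2, a mitochondrial folate enzyme gene, rose 3.57-fold in mean FPKM (log2 fold change 1.73, adjusted p = 0.0307 from limma), and Slc7a5, an amino acid transporter gene, from 12.8 to 36.1 FPKM (1.41, adjusted p = 0.00307 from limma). Slc3a2, the heavy chain that pairs with amino acid transporters, rose by 1.07 on the log2 scale (SE 0.11, adjusted p = 0.0185). Chac1, a glutathione-degrading enzyme gene, was at 0.290, 0.0635 and 0.198 FPKM in controls and 11.0, 8.62 and 2.43 in mutants. Its log2 fold change was 2.64 (SE 0.41, adjusted p = 0.0643 from limma), and like Adm2 it was tested through its mutant libraries alone. The cystine transporter gene Slc7a11 missed the filter as Gdf15 did, with 0.0485 to 0.0999 FPKM in controls and 2.27, 2.60 and 0.835 in mutant replicates 1, 2 and 3.

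The lower level in the library labelled mutant replicate 3 was shared by the list. It was the lowest of the mutant libraries in all 29 genes tested, against 41.3% of all genes tested. The mean of the list over the control mean was 1.64, 1.55 and 0.77 on the log2(FPKM + 1) scale in mutant replicates 1, 2 and 3. Atf3 and Ddit4 lay within the control range in that library, with Atf3 at 5.04 FPKM against 4.93 to 5.39 in controls and Ddit4 at 7.21 against 7.06 to 7.55. It was also the lowest mutant library in 7 of 8 epicardial and fibroblast markers, in 4 of 4 macrophage markers tested, in 6 of 8 endothelial and in 3 of 7 hepatocyte markers, but in 1 of 14 cardiomyocyte markers. The mean of the cardiomyocyte markers relative to the control mean was -0.43, -0.32 and -0.18 on the log2(FPKM + 1) scale in mutant replicates 1, 2 and 3. The part of cell content in the lower level was not tested. Without the library, 25 of 26 tested genes of the list passed an adjusted p under 0.05 from limma, all of them higher, and 29 of 30 did with the filter on the mean, where 1.05% of genes tested were higher. The 4 genes that this filter added, Chac1, Nupr1, Slc7a3 and Slc7a11, passed it through their mutant libraries alone.

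**Figure D4:**
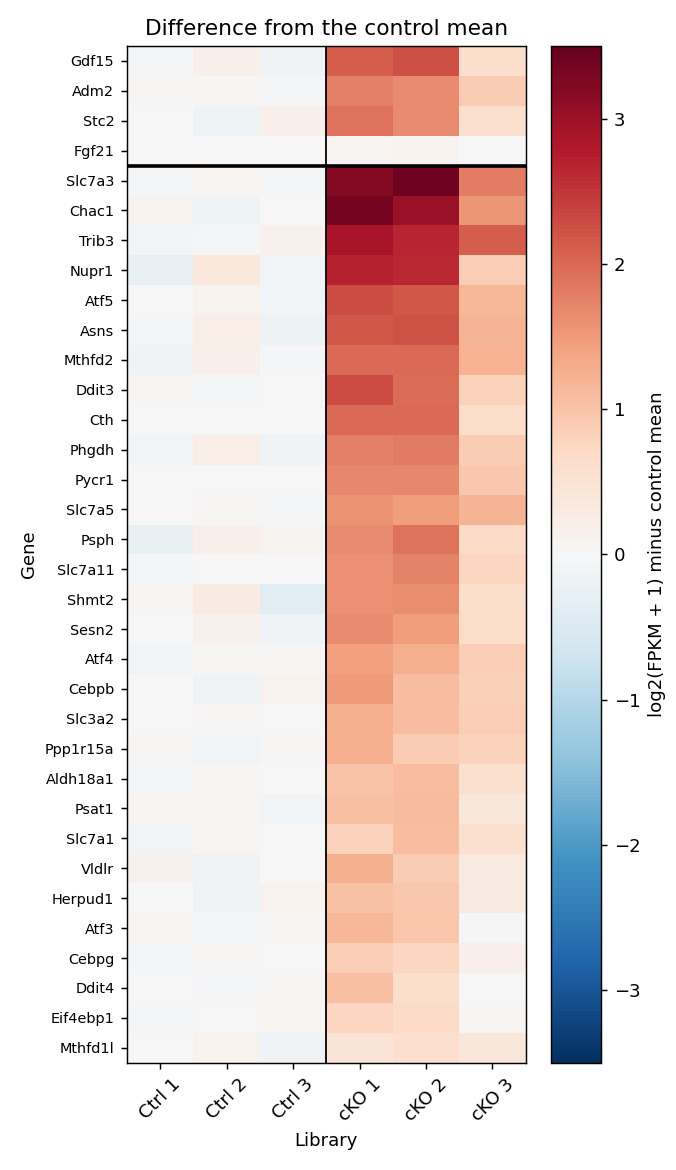
Difference of log2(FPKM + 1) from the control mean for the 4 secreted factors (above the black line) and 30 integrated stress response genes (below it, ordered by log2 fold change) in each library. Columns are libraries and the colour scale runs from blue (lower) through white to red (higher). Gdf15, Adm2 and Stc2 share with the list below a darker red in cKO 1 and cKO 2 than in cKO 3, and the row of Fgf21 is pale throughout.

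The genes whose pattern over the 6 libraries was most like that of Adm2 were the transcription factor gene Atf5 (Pearson r = 0.999), the cysteinyl-tRNA synthetase gene Cars (0.998) and the proline synthesis gene Pycr1 (0.997). For Stc2 they were the endoplasmic reticulum stress gene Herpud1 (0.998), Pck2, a mitochondrial phosphoenolpyruvate carboxykinase gene (0.997), and Lonp1, a mitochondrial protease gene (0.996). These values describe 6 libraries in 2 groups on the log2(FPKM + 1) scale, ranked among 13259 genes. The 6 libraries share the depth and blood differences given above. A difference between the groups and a lower level in the library labelled mutant replicate 3 are enough for a high r. Such an r is therefore not evidence of a link between 2 genes. Atf5 was at 5.85, 6.59 and 5.50 FPKM in controls and at 32.8, 30.4 and 14.6 in mutants, and Herpud1 at 16.5, 14.9 and 18.1 and at 34.4, 32.6 and 20.5.

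Other secreted proteins were compared with the members through a list of 20 factors linked to stress or to the heart. Of 15 tested, 0 passed an adjusted p under 0.05 from limma, and 3 were higher and 2 lower at an unadjusted p under 0.05 (5.57% and 9.43% of all genes tested), with a median log2 fold change of 0.04. With the library labelled mutant replicate 3 left out, 1 of 14 passed (0.965% of all genes tested were higher past adjustment), and 3 were higher and 1 lower at an unadjusted p (6.40% and 8.89%), with a median of 0.05. The 3 were Edn1, Igfbp3 and Vegfa. Vegfa had a log2 fold change of 0.81 in that fit (adjusted p = 0.0589 from limma) and of 0.50 with all libraries (adjusted p = 0.403 from limma). Angptl6, an angiopoietin-like hormone gene, had 0.460, 0.648 and 0.560 FPKM in controls and 3.53, 3.26 and 1.15 in mutants. Its log2 fold change was 1.16 (SE 0.27, adjusted p = 0.148 from limma), and it was tested through its mutant libraries alone. Edn1, which encodes endothelin-1, was at 3.90, 3.95 and 4.41 FPKM in controls and at 8.20, 8.16 and 3.89 in mutants, so the library labelled mutant replicate 3 lay below every control (log2 fold change 0.55, SE 0.23, adjusted p = 0.316 from limma). Both genes passed without that library, Angptl6 at 1.50 (adjusted p = 0.00177 from limma with the filter on the mean) and Edn1 at 0.85 (adjusted p = 0.00621 from limma). The filter on the mean was chosen after the data were seen, and Angptl6 passed it through its mutant libraries alone. Igfbp3, which encodes a binding protein of insulin-like growth factors, was the third gene higher at an unadjusted p, with a mean of 9.42 FPKM in control and 12.2 in mutant hearts (log2 fold change 0.34, adjusted p = 0.262 from limma). Manf and Creld2, which encode proteins secreted under endoplasmic reticulum stress, had log2 fold changes of -0.21 (adjusted p = 0.453) and 0.10 (adjusted p = 0.694 from limma). Nrg1 and Fgf1 were the 2 lower genes, at -0.42 and -0.33 (adjusted p = 0.242 and 0.331 from limma).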

How the data were processed

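Ribosomal RNA was removed from total RNA of whole embryonic hearts and strand-specific libraries were made, 3 for each genotype. The study's RNA sequencing methods, which do not name the embryonic hearts, instead describe selecting mRNA on poly-T beads. The authors deposited FPKM for 60776 transcripts in each library. The submitters' processing notes name Bowtie2 2.2.8, HISAT2, StringTie 1.3.1, Cuffdiff 2.1.1 and the build mm9, without roles, and the annotation release is not given in the sources used here. Transcript FPKM were summed by gene. Log2(FPKM + 1) was compared with limma 3.58.1 (eBayes with trend, R 4.3.3, Benjamini-Hochberg over all genes tested), and the script was tested on simulated data. No test for counts was applied to these values. Implied fragments were computed from FPKM, the transcript length in GENCODE M21 and the value of 1 fragment, estimated on single-transcript genes of 700 to 2500 bases. Depth was 16700000 to 27100000 fragments by this estimate. Exact permutation tests and binomial intervals used SciPy 1.17.1. Biological replicates are those the labels name. Members, gene lists and tests were chosen with earlier results of these data known. Named genes were the members, Mrps5, any genes of the lists (first those with an unadjusted p under 0.05, then receptors, partners and paralogs of a member, then others) and the 3 most alike genes of each tested member, and which listed genes to describe was decided with their values seen. Alternatives covered the pseudocount, filter, scaling, transcript choice, variance model, block, erythroid covariate and left-out libraries.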

Additional observations from a re-analysis of the deposited data

How the results depend on the processing

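Gdf15, Adm2 and Stc2 were higher in mutant hearts in all 17, 18 and 18 alternatives that gave a value. Every mutant value of these genes lay above every control value. Leaving out a library or changing the pseudocount, filter or variance model could therefore not reverse their direction. For Fgf21, at 0 in every control, the direction could not differ either. Adjusted p from limma ranged from 0.000562 to 0.300 for Gdf15 (3 tests), from 0.000968 to 0.285 for Adm2 and from 0.000833 to 0.451 for Stc2, and was 0.553 for Fgf21 in its 1 test. With 0.1 added to FPKM the log2 value was 3.58 for Gdf15, 2.52 for Adm2, 1.75 for Stc2 and 0.51 for Fgf21. The value of Fgf21 was 0.13 with 0.5 added. Leaving out 1 library gave 1.11 (without mutant replicate 1) to 1.79 (without the library labelled mutant replicate 3) for Stc2, 2 to 25 called integrated stress response genes, 0 to 1 other secreted factors and 3 to 261 genes in all, with 126 in all and 9 of the list without mutant replicate 2. With the filter on the mean and without the library labelled mutant replicate 3, chosen after the data were seen, Gdf15 was at 2.18, Adm2 at 1.72 and Stc2 at 1.79, and 29 stress response genes, 2 other secreted factors and 273 genes in all passed. Against 5 stress response genes and 11 genes in all, scaling to the same sum gave 19 and 111 (Adm2 1.40), scaling without erythroid markers 5 and 11, the upper quartile 5 and 10, no filter 2 and 6, the most abundant transcript 2 and 4 and eBayes without trend 3 and 6. Adding 0.1 or 0.5 gave 9 or 8 stress response genes, and the erythroid covariate 2. The causes were not tested.

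The replicate block gave 2 stress response genes and 4 genes in all, with Adm2 at an adjusted p of 0.0830 and Stc2 at 0.154 from limma. Deviations of same-numbered libraries correlated at 0.217, 0.110 and 0.0901 for numbers 1, 2 and 3, so the numbers were not taken to pair the libraries, although each library correlated best with its own number. Without any 1 mutant library Adm2 missed the filter and had no test, and no member passed a filter at a mean of 5 FPKM. The implied fragments of Fgf21 (3 in all) limit any statement on that gene.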
